A study of Homo sapiens with 6 samples.

Results

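Transcripts of 10 genes of cytosolic fatty acid synthesis and desaturation were measured in HMV-II cells, an established human melanoma line of vaginal origin. The genes were chosen by name, with earlier results of these data known. They were the transcription factor SREBF1 and the enzymes ACSS2, ACLY, ACACA, FASN, SCD, ELOVL5, ELOVL6, FADS1 and FADS2. All 10 were found among the 30015 genes of the table, whose gene positions are those of GRCh38. Poly-A RNA was sequenced from 3 Vector libraries, labelled WT and carrying a scrambled control shRNA, and from 3 shEZH2 libraries, labelled EZH2 knockdown. In the study's methods both were lentivirus-infected, puromycin-selected stable lines, and both were grown in F10 medium with 10% fetal bovine serum and labelled with no further treatment. The comparison asked which transcripts differ once EZH2, the histone H3 lysine 27 methyltransferase, is depleted. The knockdown libraries are headed as a single shRNA, so an effect of that hairpin and an effect of EZH2 loss cannot be told apart. Nothing states that the 3 libraries of a group came from separate cultures, so the p-values measure only the spread between these samples.

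Fatty acid synthesis begins with cytosolic acetyl-CoA, made from citrate by ACLY or from acetate by ACSS2. ACACA carboxylates it to malonyl-CoA and FASN builds palmitate from the pair. ELOVL6 lengthens palmitate to stearate, SCD places the first double bond in these saturated chains, and FADS2, ELOVL5 and FADS1 desaturate and lengthen the essential polyunsaturated chains taken from the diet or serum. SREBF1 encodes the membrane-bound factor SREBP-1, which SCAP escorts out of the endoplasmic reticulum when INSIG proteins release it and which then switches these genes on together with NF-Y and Sp1.

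The libraries held between 13400290 and 19128939 reads assigned to genes, and all values below are read counts divided by a library size factor (normalized counts). EZH2 was at 483, 437 and 552 in the Vector libraries and at 237, 247 and 225 in the shEZH2 libraries, which do not overlap (log2 fold change -1.04, SE 0.14, limma adjusted p = 0.0142). All 8 melanocyte lineage markers examined had a mean of at least 10, with a summed level of 75515 to 100744 per library, against 1 of 4 keratinocyte, 2 of 5 fibroblast and 0 of 2 leukocyte markers. Vector replicate 2 stood apart from the other Vector libraries. Between Vector replicates 1 and 3 the mean squared difference per gene was 2.14 times the counting variance, and between Vector replicate 2 and either of them it was 119 and 117 times. This difference followed gene length, with a median log2 difference of -0.54 in the shortest 20% of genes and 0.42 in the longest 20%. Among the shEZH2 libraries the value was 23.9 and 14.3 between replicate 1 and replicates 2 and 3, and 6.49 between the latter. The median deviation of shEZH2 replicate 1 from the mean of all 6 libraries ran from 0.24 in the shortest to -0.19 in the longest 20% of genes. Values that lost a call or moved by over 1.5 times without Vector replicate 2 are given with and without it.

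The promoters of 9 members were found in RefSeq (GRCh38.p14), as 14 start sites, and that of FASN was not analysed here. The 250 bases before the start are printed for ACLY and SCD, whose transcripts were called higher, for ACACA, whose transcript was not called, and for SREBF1 itself. The SCD call was lost, and an ACACA call was gained, in some of the settings given below. Sequences run 5′ to 3′ along the gene, and capitals mark CCAAT, the core of the NF-Y site, and GGGCGG, the core of the Sp1 site, on either strand (ATTGG and CCGCCC when reversed).
ACLY, chr17:41919023-41919272, minus strand: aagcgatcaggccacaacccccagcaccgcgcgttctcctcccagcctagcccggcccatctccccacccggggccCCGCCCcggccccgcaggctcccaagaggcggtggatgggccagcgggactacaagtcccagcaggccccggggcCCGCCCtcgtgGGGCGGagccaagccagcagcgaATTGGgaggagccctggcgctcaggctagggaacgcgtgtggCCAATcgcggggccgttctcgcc
SCD, chr10:100346983-100347232, plus strand: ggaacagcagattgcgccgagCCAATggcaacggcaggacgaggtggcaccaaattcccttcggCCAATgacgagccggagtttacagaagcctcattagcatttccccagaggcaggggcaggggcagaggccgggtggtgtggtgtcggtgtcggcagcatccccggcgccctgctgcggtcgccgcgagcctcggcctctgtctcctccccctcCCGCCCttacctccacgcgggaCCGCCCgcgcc
ACACA, chr17:37406837-37407086, minus strand: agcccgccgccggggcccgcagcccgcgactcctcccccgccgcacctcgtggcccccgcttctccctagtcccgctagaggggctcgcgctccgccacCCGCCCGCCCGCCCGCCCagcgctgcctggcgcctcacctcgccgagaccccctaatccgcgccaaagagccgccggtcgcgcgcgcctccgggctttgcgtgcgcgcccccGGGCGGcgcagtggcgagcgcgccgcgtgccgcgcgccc
SREBF1, chr17:17836987-17837236, minus strand: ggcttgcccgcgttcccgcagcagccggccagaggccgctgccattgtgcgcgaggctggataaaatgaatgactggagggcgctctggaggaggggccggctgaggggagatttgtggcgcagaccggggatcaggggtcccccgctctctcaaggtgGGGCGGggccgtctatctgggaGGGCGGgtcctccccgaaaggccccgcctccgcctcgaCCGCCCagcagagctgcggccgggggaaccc
CCAAT on either strand was present before 7 of the 14 starts, belonging to 5 of the 9 genes, against 32.0% of the 35116 promoter windows of the same length. GGGCGG on either strand was present before 11 of the 14 starts, belonging to 8 genes, against 42.6% of all windows. The E-box CACGTG was found before 1 start, that of ELOVL5, against 6.34% of all windows. The sterol regulatory element TCACNCCAC was found on neither strand before any of the 14 starts, against 0.883% of all windows. The ACACA start printed has no CCAAT, whereas the other ACACA starts do, and ELOVL6, which was called, has none. The windows of the ACLY starts share bases, as do those of FADS2, and no CCAAT match overlaps a GGGCGG match. Every CCAAT and GGGCGG match before the printed ACLY start is counted again before the other ACLY start. The background shares are of single windows, and a gene with several starts has more windows to match. The counts of genes therefore cannot be set against those shares. A match describes letters in a window and not a bound site.

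Of the 10 transcripts, 5 rose after EZH2 knockdown and none fell, using the study's threshold of p under 0.05 and a fold change over 1.5 (limma). The 5 were ACSS2, ACLY, FASN, SCD and ELOVL6. Over all 15251 genes tested, 7.55% were called higher and 7.07% lower at this threshold. With Benjamini-Hochberg adjusted p under 0.05 instead, 3 of the 10 were higher, namely ACSS2, ACLY and ELOVL6, and none was lower, against 2.28% and 1.84% of all genes. The shEZH2 libraries lay wholly above the Vector libraries for 7 members and wholly below for none, which was the case for 18.4% and 16.5% of all genes. The median log2 fold change of the members was 0.54, against 0.039 over all genes. Since the members were chosen with earlier results known, the values over all genes are a description beside them and not a test. In bulk RNA, a change in the share of cells that carry a transcript and a change in its level per cell cannot be told apart.

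ACSS2 (ENSG00000131069, chr20:34872146-34927962, plus strand), the cytosolic acetyl-CoA synthetase that uses acetate, rose the most. Its normalized counts were 902, 1000 and 886 in the Vector libraries and 2654, 2671 and 2675 in the shEZH2 libraries. Every shEZH2 library was far above every Vector library, and the shEZH2 libraries differed from each other by less than the Vector libraries did. The ratio of group means was 2.87, with a log2 fold change of 1.52 (SE 0.12, 95% interval 1.24 to 1.81, limma adjusted p = 0.00317). Without Vector replicate 2 the log2 fold change was 1.58. ACSS2 shares 715 bases with GGT7 on the other strand, and since the counting is not stated to use strand, reads there cannot be told apart.

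ACLY (ENSG00000131473, chr17:41866908-41930542, minus strand), which cleaves citrate to acetyl-CoA, was at 3754, 4891 and 3834 in the Vector libraries and at 6492, 7077 and 7665 in the shEZH2 libraries. The groups do not overlap, although Vector replicate 2 was the highest of its group. The log2 fold change was 0.77 (SE 0.16, 95% interval 0.40 to 1.15, limma adjusted p = 0.0429), and 0.90 without that library. ACSS2, ACLY and ELOVL6 were called at the study's threshold with each tool, scaling, filter and left-out library tried.

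ACACA (ENSG00000278540, chr17:37084988-37406818, minus strand), the acetyl-CoA carboxylase of the cytosol, was at 1457, 2922 and 1438 in the Vector libraries and at 1640, 2029 and 2312 in the shEZH2 libraries. Vector replicate 2 lay above all shEZH2 libraries, and the other Vector libraries lay below all of them. The log2 fold change was 0.11 with an interval of -0.57 to 0.79 (limma adjusted p = 0.835), which leaves room for a rise as large as that of ACLY and for a fall. Without Vector replicate 2 it was 0.45 (SE 0.13, limma adjusted p = 0.0296), still under the fold threshold. With library weights, which lower the influence of libraries that vary more, it was 0.63 and was called (limma adjusted p = 4.18e-05).

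FASN (ENSG00000169710, chr17:82078333-82098332, minus strand), the multienzyme that makes palmitate, was the most abundant transcript of the 10 by count. It was at 17883, 31357 and 17070 in the Vector libraries and at 35276, 32802 and 36411 in the shEZH2 libraries. The groups do not overlap, yet Vector replicate 2 came close to the lowest shEZH2 library. The log2 fold change was 0.71 (SE 0.26, 95% interval 0.12 to 1.31, limma adjusted p = 0.159). Without Vector replicate 2 it was 0.99 (SE 0.091, limma adjusted p = 1.51e-05). The FASN call was lost without Vector replicate 1 or 3, and without any 1 of the shEZH2 libraries, with log2 fold changes down to 0.56.

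SCD (ENSG00000099194, chr10:100347124-100364834, plus strand), the stearoyl-CoA desaturase that makes monounsaturated chains, was at 10848, 16292 and 10842 in the Vector libraries and at 16475, 19502 and 21376 in the shEZH2 libraries. Here too the groups do not overlap and Vector replicate 2 lay next to the lowest shEZH2 library. The log2 fold change was 0.61 (SE 0.21, 95% interval 0.12 to 1.11, limma adjusted p = 0.148), and 0.81 without Vector replicate 2 (SE 0.11, limma adjusted p = 0.000289). This call was lost without Vector replicate 1 or 3 or shEZH2 replicate 2 or 3, with log2 fold changes down to 0.52, and it was also lost with DESeq2.

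Of the elongases, ELOVL6 was called and ELOVL5 was not. ELOVL6 (ENSG00000170522, chr4:110045846-110199199, minus strand), which lengthens palmitate, was at 575, 465 and 568 in the Vector libraries and at 965, 1122 and 1075 in the shEZH2 libraries. The groups are well apart, and Vector replicate 2 was the lowest library, opposite to its place for FASN and SCD. The log2 fold change was 0.98 (SE 0.15, 95% interval 0.64 to 1.32, limma adjusted p = 0.0173). ELOVL5 (ENSG00000012660, chr6:53267398-53349179, minus strand), which lengthens polyunsaturated chains, was at 1441, 1209 and 1347 against 1726, 1954 and 1870. These groups do not overlap either, but its log2 fold change of 0.48 (SE 0.13, 95% interval 0.17 to 0.79, limma adjusted p = 0.0913) did not reach the threshold. Without Vector replicate 2 it was 0.41 (limma adjusted p = 0.0143).

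The front-end desaturases of polyunsaturated synthesis were not called in either direction. FADS1 (ENSG00000149485, chr11:61799625-61829318, minus strand), the delta-5 desaturase, was at 2769, 3686 and 2674 in the Vector libraries and at 2566, 2886 and 3033 in the shEZH2 libraries. The groups overlap, and the log2 fold change was -0.094 (95% interval -0.48 to 0.30, limma adjusted p = 0.752), or 0.052 without Vector replicate 2. FADS2 (ENSG00000134824, chr11:61792980-61867354, plus strand), the delta-6 desaturase, was at 453, 587 and 497 against 463, 387 and 444. These groups overlap as well, with a log2 fold change of -0.24 (95% interval -0.60 to 0.12, limma adjusted p = 0.372), and -0.14 without Vector replicate 2. The intervals of both genes exclude a rise as large as the value for ACLY. In the table's annotation FADS1 lies within the span of FADS2 on the other strand over 29694 bases, and FEN1 shares 4265 bases with FADS2 on the same strand, so reads of these genes may be split between them in ways the table does not show.

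SREBF1 (ENSG00000072310, chr17:17810399-17837002, minus strand) was at 2295, 2302 and 2226 in the Vector libraries and at 3375, 2721 and 2960 in the shEZH2 libraries. The 3 Vector libraries were within a narrow range and all shEZH2 libraries were above it. The log2 fold change of 0.40 (SE 0.13, 95% interval 0.088 to 0.72, limma adjusted p = 0.137) was under the fold threshold, as was 0.41 without Vector replicate 2 (limma adjusted p = 0.0176). SREBF1 shares 1055 bases with RAI1 on the other strand and contains the microRNA gene MIR33B, and the counts do not separate the SREBP-1a and SREBP-1c transcripts.

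**Figure D1:**
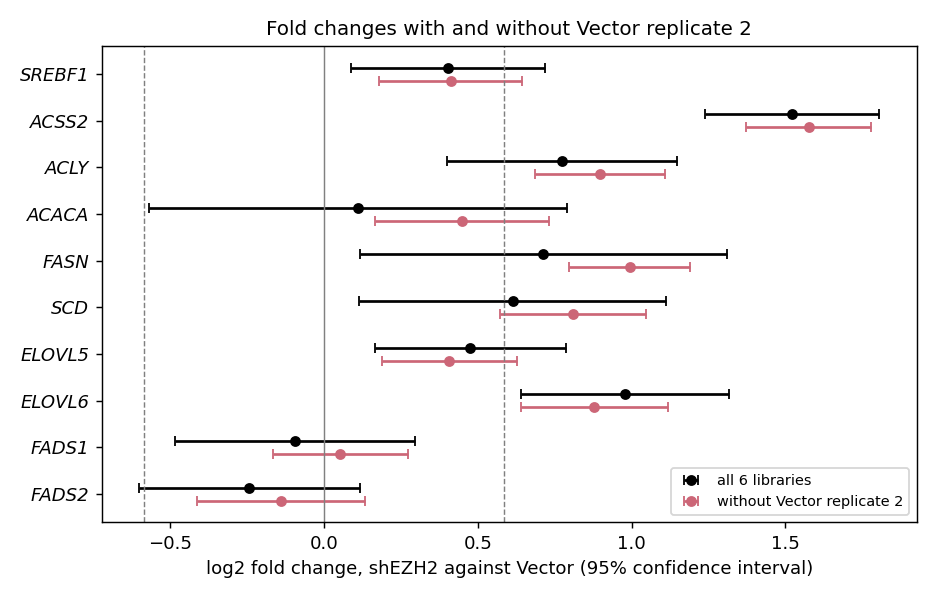
Log2 fold change (shEZH2 minus Vector) of each gene with its 95% interval from limma, with all 6 libraries and without Vector replicate 2; the dashed lines mark the fold threshold of 1.5 (log2 scale) in either direction. The values for ACSS2 were 1.52 and 1.58 and those for ELOVL6 0.98 and 0.88, while FASN moved from 0.71 to 0.99 and ACACA from 0.11 to 0.45 with narrower intervals.

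Leaving out Vector replicate 2 kept the same 5 calls and raised the number of members with limma adjusted p under 0.05 from 3 to 8, all of them higher in shEZH2. Over all genes the same step gave 7.05% higher and 5.64% lower at the study's threshold, and 9.78% higher at adjusted p under 0.05. The median of the members was then 0.63, against -0.0059 over all genes. Relative to the mean of Vector replicates 1 and 3, Vector replicate 2 was 2.02-fold for ACACA, 1.79-fold for FASN, 1.5-fold for SCD and 1.35-fold for FADS1, and 0.867-fold for ELOVL5 and 0.813-fold for ELOVL6. ACLY was at 1.29-fold, FADS2 at 1.24-fold, ACSS2 at 1.12-fold and SREBF1 at 1.02-fold. The cause of these differences was not tested. With the trend against gene length removed from every library, the log2 fold change was 0.84 for FASN, 0.32 for ACACA and 0.057 for FADS1, and SCD was no longer called at 0.58.

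Levels were also divided by the deposited gene length in kilobases. That length is not stated to be that of the transcript expressed, so the order of genes is approximate. SCD and FASN were the most abundant in Vector cells at mean normalized counts per kilobase of 2361 and 2360, and their libraries overlap. ACLY followed at 797 per kilobase, clear of its neighbours. ELOVL5 at 349, FADS1 at 297 and SREBF1 at 283 formed a group in which neighbours overlap, as did ACSS2 at 173 and ACACA at 149. These overlaps, and that of SCD with FASN, came only through Vector replicate 2. Without it the means per kilobase were 2023 for SCD, 1866 for FASN, 366 for ELOVL5, 282 for SREBF1, 266 for FADS1, 166 for ACSS2 and 111 for ACACA. ELOVL6 at 73.4 and FADS2 at 46.4 were lowest. In shEZH2 cells the order changed chiefly through ACSS2, which reached 495 per kilobase and overlapped with ELOVL5 at 485. FASN was at 3720, SCD at 3565, ACLY at 1357, SREBF1 at 376, FADS1 at 276, ACACA at 153, ELOVL6 at 144 and FADS2 at 39.1 per kilobase. The levels of ACACA and ELOVL6 overlapped in shEZH2 cells and did not in Vector cells.

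For pairs of genes with related roles, 5 ratios were set side by side by exact permutation of the group labels, which has 20 arrangements and a smallest 2-sided p of 0.1. The ELOVL6 to ELOVL5 ratio was 0.399, 0.384 and 0.422 in the Vector libraries and 0.559, 0.574 and 0.575 in the shEZH2 libraries. These do not overlap, with a difference of 0.50 on the log2 scale (exact p = 0.1, adjusted over the 5 ratios 0.25). The SREBF1 to SREBF2 ratio was 0.225, 0.166 and 0.228 against 0.307, 0.253 and 0.251, again without overlap, with a log2 difference of 0.40 (exact p = 0.1). That difference was 0.25 without Vector replicate 2. The groups overlapped for the other ratios. The log2 difference was 0.15 for FADS1 to FADS2 (exact p = 0.4), -0.099 for SCD to FASN (exact p = 0.5) and -0.28 for SCD to its paralog SCD5 (exact p = 0.5). Without Vector replicate 2 these were 0.19, -0.18 and -0.064, and without Vector replicate 1 the SCD to SCD5 difference was -0.46.

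**Figure D2:**
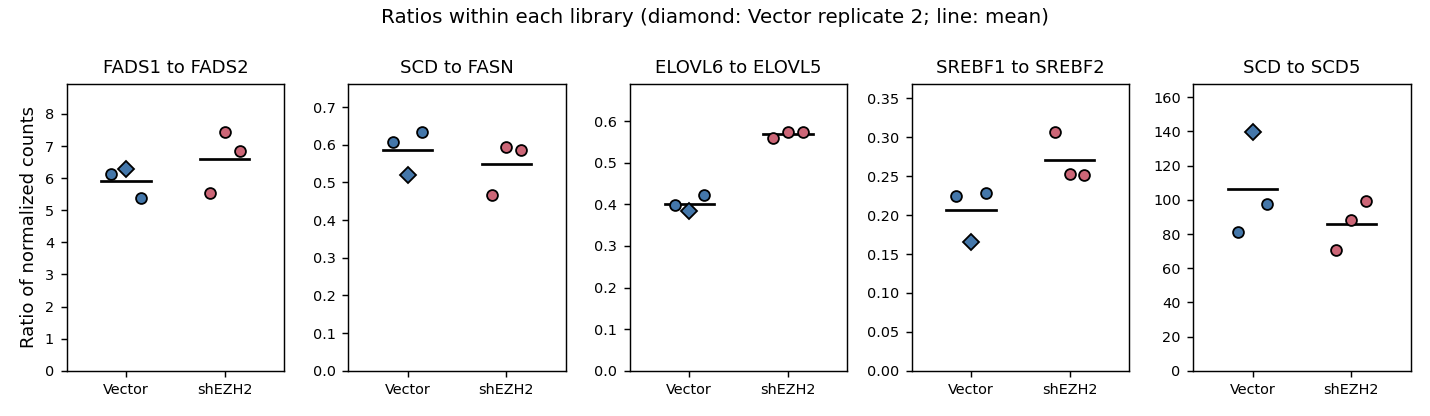
The 5 ratios of normalized counts in each of the 6 libraries on axes starting at 0, with lines for group means of 3 and the diamond for Vector replicate 2. The ELOVL6 to ELOVL5 and SREBF1 to SREBF2 ratios separate the groups, and the other ratios overlap.

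Among the regulators of SREBP processing, 1 of 6 genes was called. For this list and those that follow, the shares over all genes were 7.55% called higher and 7.07% called lower. A list with 1 call lies near these shares, and the call then describes the gene and not the list. INSIG1, the sterol-sensitive retention protein and itself an SREBP target, was at 1779, 1365 and 1742 in the Vector libraries and at 2909, 3145 and 3082 in the shEZH2 libraries (log2 fold change 0.91, limma adjusted p = 0.0228). SREBF2, which encodes the factor of the cholesterol branch, had a log2 fold change of 0.0038 and SCAP of -0.25, neither called. The values were 0.16 and -0.021 without Vector replicate 2. Of 10 lipogenic transcription factors tested, 1 was called, the ChREBP partner MLX at 0.59, and that call was lost without Vector replicate 2 (0.41).

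Of 7 tested genes that supply acetyl-CoA, malonyl-CoA or NADPH, 2 rose and 1 fell. SLC25A1, which exports citrate from mitochondria to ACLY, was at 563, 433 and 475 in the Vector libraries and at 1568, 1314 and 1425 in the shEZH2 libraries (log2 fold change 1.55, limma adjusted p = 0.00607). PGD, an NADPH-producing enzyme of the pentose phosphate pathway, rose by 0.88 on the log2 scale (limma adjusted p = 0.0141). IDH1, the cytosolic NADP-dependent isocitrate dehydrogenase, fell by 0.62 (limma adjusted p = 0.122). The IDH1 call was lost without Vector replicate 1 or 3 or shEZH2 replicate 1. ACACB, the mitochondrial-surface acetyl-CoA carboxylase, had a log2 fold change of -0.13, or 0.13 without Vector replicate 2, and was not called.

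Of 8 other elongation genes tested, 3 were higher. ELOVL1, the elongase of very long saturated chains, had a log2 fold change of 1.03, and HACD3 and TECR, which act in the dehydration and final reduction steps of the cycle, had values of 0.73 and 0.71. The TECR call was lost without Vector replicate 2 (0.41). Of 6 other desaturases and electron donors, SCD5 alone was called at 0.89, rising from 134, 116 and 111 to 233, 221 and 216. None of 6 genes of mitochondrial fatty acid synthesis was called, the most abundant being NDUFAB1 at 0.67 (0.20 without Vector replicate 2), nor was any of 6 acyl-CoA synthetases, the most abundant being ACSL3 at 0.37.

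Of 15 genes of glycerolipid synthesis and storage, LPIN1, the phosphatidate phosphatase, was the 1 called (0.62), and none had limma adjusted p under 0.05. The LPIN1 call was lost with edgeR upper-quartile factors and without Vector replicate 1 or 3. Of 13 genes of fatty acid oxidation, ECHS1, an enoyl-CoA hydratase, was called higher at 0.70 and CPT1B, the muscle-type carnitine palmitoyltransferase, lower at -0.68, and neither call held without Vector replicate 2. Of 20 tested genes of cholesterol synthesis and uptake, 18 were called higher, 11 of them with limma adjusted p under 0.05, with a median log2 fold change of 0.96. Among them were HMGCS1, MVK, MVD, IDI1, FDPS, FDFT1, SQLE, LSS, CYP51A1, TM7SF2, MSMO1, NSDHL, HSD17B7, EBP, SC5D and DHCR7, enzymes of cholesterol synthesis, with log2 fold changes from 0.67 for SC5D to 1.70 for MVD. Without Vector replicate 2, 15 of these 20 were called, with FDFT1, NSDHL and SC5D falling under the fold threshold. The median of the 10 fatty acid genes, 0.54, lay close to those of mitochondrial fatty acid synthesis (0.52), other desaturases (0.50) and other elongation enzymes (0.49). Without Vector replicate 2 these lists were at 0.080, 0.22 and 0.36, against 0.63 for the 10 genes. With the length trend removed they were at 0.31, 0.49 and 0.44, against 0.53 for the 10 genes. The cholesterol list was at 0.86 and 0.91 in these settings, above the 10 genes in each. MLXIPL, FADS6, ACSL6 and SLC27A2 were not analysed here.

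The mean centred log2 profile of the 10 genes was -0.36, -0.047 and -0.38 in the Vector libraries and 0.20, 0.25 and 0.34 in the shEZH2 libraries. Vector replicate 2 lay between the other Vector libraries and the shEZH2 libraries. Of 11881 candidate genes, those whose log2 values over the 6 libraries were most like this profile were LPCAT1 (Pearson r = 0.998), CHST11 (0.997), GFOD1 (0.996), MYLK (0.995) and NEURL1B (0.994). LPCAT1, a phospholipid-remodelling acyltransferase, was at 416, 511 and 407 in the Vector libraries and at 607, 608 and 655 in the shEZH2 libraries. These correlations describe 6 libraries that share the group difference and the place of Vector replicate 2, and many candidates were searched.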

How the data were processed

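RNA-seq of 6 HMV-II libraries, 3 Vector and 3 shEZH2, was analysed from a table of 30015 genes. Per the labels, the authors counted reads with featureCounts v1.5.0-p3 and used DESeq2 1.20.0. The per-library signal deposited by the authors is the read count divided by a size factor, and 100% of values were whole multiples of the value of 1 read (tolerance 0.01), so that reads could be recovered. The aligner and strand setting are not given in the sources used here. The submitters' processing notes name hg19. Of 15287 protein-coding genes compared, however, 47.0% shared their first or last base with the gene in GRCh38 and 0.680% with that in GRCh37. The authors' fold changes, p-values and adjusted p-values are also in the table and were not used.

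The 15251 genes whose mean normalized count reached 10 were tested with limma 3.58.1 (lmFit and eBayes with trend, R 4.3.3) on log2(normalized count + 1). Fold changes are on that scale. Calls used the study's threshold, p under 0.05 and a fold change over 1.5, and p-values were adjusted by Benjamini-Hochberg over all genes tested. Ratios were compared with the exact 2-sided permutation test. Alternatives were edgeR 4.0.16 and DESeq2 1.42.0 on recovered reads, other scalings, pseudocounts of 0.1 and 5, other minimum means, library weights, a length correction (loess span 0.5), a replicate block and each library left out. Only the limma, edgeR and DESeq2 fits were tested on simulated counts with known fold changes. That simulation held no library that stands apart and no trend with gene length.

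The members and lists were chosen with earlier results of these data known. Genes named are the 10 members, EZH2, every gene past the threshold in each other list or else its most abundant gene, SREBF2, SCAP, INSIG1, SCD5 and ACACB, and the 5 genes (minimum mean 50) most correlated with the members' mean profile. Some genes that this rule names are not reported here. Promoters came from RefSeq. Deviations of same-numbered libraries from their group means correlated at r = 0.28, 0.22 and -0.11. Vector replicate 3 correlated best with shEZH2 replicate 1 (r = 0.25), so replicate numbers were not taken as pairs.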

Additional observations from a re-analysis of the deposited data

How the results depend on the processing

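The number of members called higher, 5 at the study's threshold, was 3 with edgeR RLE factors, 3 with edgeR upper-quartile factors, 3 with adjusted in place of unadjusted p and 1 with a log2 fold change over 1, and 3 to 5 with a library left out. It was 4 with DESeq2 and with the length trend removed, where SCD was lost, 6 with library weights, where ACACA was gained, and 5 with TMM scaling in limma or edgeR, the other pseudocounts and the other minimum means. No member was called lower in any of these settings. With RLE and upper-quartile factors FASN and SCD were lost. Members with adjusted p under 0.05, 3 by limma, were 8 with library weights and 0 to 8 with a library left out, with 8 without Vector replicate 2 and 0 without shEZH2 replicate 3. Their median, 0.54, was 0.77 with library weights and 0.50 to 0.63 with a library left out. Over all genes, 1151 higher and 1078 lower calls became 463 and 335 with a log2 fold change over 1, 345 and 279 with adjusted p, and 849 to 1525 and 773 to 1318 with a library left out. The 30 calls in the other lists became 12, 17 and 23 to 34 under the same changes. The cause of these shifts was not tested.

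The sign of the ACACA log2 fold change turned with upper-quartile factors (-0.0096) and without Vector replicate 1, Vector replicate 3 or shEZH2 replicate 3, with a range of -0.064 to 0.45 over the libraries left out, and it was 0.63 and called with library weights. FADS1 turned to 0.057 with the length trend removed, 0.14 with library weights and 0.052 without Vector replicate 2, its range being -0.18 to 0.052, and ACACB to 0.10, 0.17 and 0.13 under the same changes, its range being -0.29 to 0.13. SREBF2, at 0.0038, was -0.019 with edgeR TMM factors, -0.041 with DESeq2, -0.041 with RLE factors, -0.052 with upper-quartile factors, and -0.093 to 0.16 over the libraries left out. The SCD to FASN log2 difference was -0.18 to 0.014, the latter without shEZH2 replicate 1. Apart from ACACA with library weights, none of these values was called.

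With the replicate number as a block, 5 members were called, 2 of them with adjusted p under 0.05, and 1322 genes were called higher and 1112 lower. The correlations of same-numbered libraries (r = 0.28, 0.22 and -0.11) do not settle whether the numbers pair the libraries. With 3 libraries a group, and a Vector library that stands apart, an adjusted p that misses the threshold does not show that a transcript did not differ.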
